A study of Apis mellifera with 18 samples.

Results

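The comparison set tissue of honey bees (Apis mellifera, Italian bees) that had collected olive pollen against the same tissue of bees with no pollen. It held 3 libraries of a group that collected pollen of Olea europaea, called olea here, and 3 libraries of a control group with no pollen, 6 of the 18 libraries in the series. Both groups came from tissue that the labels call tentacles. A pear pollen group of 3 tentacles libraries was used to ask where olea differed from another pollen. The labels give no age, caste or colony, and no word on whether the replicates were separate bees, pools or repeated preparations, so every p-value below measures the spread between these libraries only. Each library began as 1.3 ug of total RNA taken through a SMARTER mRNA kit, and the olea and control libraries held between 26351165 and 41357453 counts over 17545 genes.

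A foraging worker finds flowers by smell, sight and touch and carries pollen back on its hind legs. Its antennae hold the odorant receptors, the odorant binding proteins of the fluid around the receptor neurons, and the touch and taste cells used on a flower. Workers change tasks with age: nurses make royal jelly proteins in the hypopharyngeal glands of the head, and the same glands of foragers turn to enzymes that process nectar. Juvenile hormone, insulin signals, octopamine and a cGMP-dependent protein kinase are known to shift with that change of task in bees.

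The label was set against marker genes. Odorant receptor 2 (GB40730), the co-receptor that insect odorant receptors need, had 601, 597 and 601 CPM in the olea libraries and 495, 419 and 496 CPM in the control libraries, where CPM is the counts-per-million value after TMM scaling of library sizes. The homeobox gene distal-less (GB40095†), which specifies the outer parts of appendages, had 561, 545 and 539 CPM in olea and 401, 436 and 442 CPM in controls. Together 20 odorant binding protein genes summed to 55458 to 55844 CPM in olea and 45443 to 51628 CPM in controls. Another antenna marker, ionotropic receptor 25a (GB47387), was lower in olea. It had 30.9, 32.4 and 29.9 CPM in olea and 36.1, 40.4 and 38.5 CPM in controls. Proboscipedia (GB51302), the homeotic gene of the mouthparts, had 0 counts in each of the 3 olea libraries, and 6, 13 and 4 counts in the 3 control libraries. Both groups thus held olfactory transcripts, and the mouthpart gene was at or near 0 in both.

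One set of markers of another tissue stood apart. All 16 genes taken as markers of the hypopharyngeal gland, a nurse gland in the head, were lower in olea, against 13.5% of all tested genes. They were taken from the royal jelly family and the honey-making enzymes, with earlier results of these data known. Of 23 tested family members 3 were higher and 5 did not pass, and of 23 tested enzymes 2 were higher and 10 did not pass. The 16 markers summed to 159 to 161 CPM in the olea libraries, 133 to 143 CPM in the pear libraries and 19081 to 30606 CPM in the control libraries. Most of the olea sum was 1 marker, the alpha-glucosidase Hbg3 (GB43247†), with 138, 137 and 138 CPM in olea and 142, 165 and 169 CPM in controls; its call (-0.21 ± 0.06, adjusted p = 0.026) was lost without any 1 olea library or control replicate 3, at adjusted p between 0.056 and 0.078. The other 15 markers summed to 22.1 to 23.4 CPM in olea, 16.8 to 23.8 CPM in pear and 18939 to 30441 CPM in controls. The sums of muscle, fat body and neuronal markers lay closer: 8 muscle markers summed to 4423 to 4440 CPM in olea and 4504 to 5193 CPM in controls, with 0 higher and 4 lower. Fat body markers summed to 2730 to 2737 CPM in olea and 2560 to 2887 CPM in controls, with 1 of 10 tested higher and 4 lower, and neuronal markers to 801 to 817 CPM in olea and 748 to 830 CPM in controls, with 2 of 4 higher and 0 lower. The 4 venom gland markers summed to 10.2 to 10.4 CPM in olea and 31.4 to 40.5 CPM in controls, with 1 of 3 tested lower and 0 higher. The lower one was venom acid phosphatase Acph-1, given below. The hyaluronidase marker had 9.6, 9.78 and 9.42 CPM in olea and 10.1, 9.13 and 11.4 CPM in controls. Melittin and phospholipase A2 were at or near 0 in both groups. These are bulk samples, in which fewer cells of a type and less RNA per cell cannot be told apart. The control libraries also differed more among themselves than the pollen libraries did: the chi-square per degree of freedom between replicates over all genes was 3.69 to 4.71 in olea, 3.33 to 4.59 in pear and 13.9 to 45.2 in controls, highest for the pairs with control replicate 2. With the royal jelly family left out of the fit, 3612 genes were called, against 3617 with it. That fit took out this family only, and not other transcripts that gland cells may hold. Whether gland RNA in the control libraries bears on any other difference was not tested.

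A wide and mostly shallow set of genes differed. Of 12950 genes with enough counts, 3617 (27.9%) passed an adjusted p of 0.05 in edgeR's quasi-likelihood test with Benjamini-Hochberg adjustment, 1864 (14.4%) higher in olea and 1753 (13.5%) lower. Without olea replicate 1 or 3 the lower count was 1139 or 1097. The median absolute log2 difference of the called genes was 0.38. At least 2-fold differences were called in 115 genes higher in olea and 168 lower, and at least 4-fold differences in 13 higher and 54 lower. The 3 olea libraries did not overlap the 3 control libraries in 41.7% of tested genes, and in 3539 of the 3617 called ones. The median log2 difference over all tested genes was -0.003. These shares are the background for the gene lists below: a list with about 14% of its members called each way did not stand apart from the tissue as a whole. The lists and genes were chosen with earlier results of these data known, and a gene ID marked † was picked after its values were seen. Genes named for the largest differences were taken only where the 3 olea and 3 control libraries did not overlap. For them a lack of overlap was fixed by that choice. Several gene models often share a name, and the values belong to the ID printed, not to every model of that name.

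**Figure D1:**
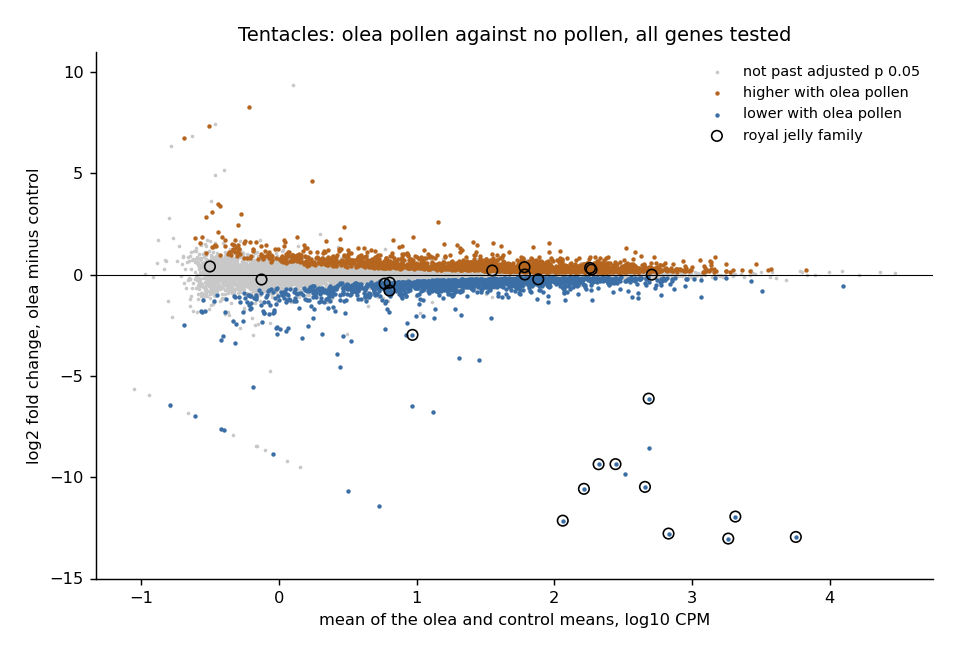
Each point is 1 of the 12950 tested genes, with its mean level on the x axis (log10 CPM) and the log2 difference of olea minus control on the y axis; called genes are coloured and the royal jelly family is circled. Most called genes lie within 1 log2 unit of 0, and the lowest points are royal jelly family members down to -13.03.

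The largest differences were falls of the royal jelly protein family, the secreted proteins of nurse glands and their yellow relatives, which are known in flies for pigmentation. Of 23 tested members 15 were lower in olea, 3 were higher and 5 did not pass. GB55205, whose best KEGG hit is yellow-f, had 1.02, 1.59 and 1.65 CPM in the olea libraries and 8335, 14641 and 11092 CPM in the control libraries, a log2 difference of -12.95 ± 0.34 (SE) with adjusted p = 5.3e-07. The controls alone held this transcript in quantity, and they differed among themselves by less than the gap to olea. GB55204 had 0.531, 0.365 and 0.42 CPM in olea and 3071, 4331 and 3600.4 CPM in controls, a log2 difference of -13.03 ± 0.20 (adjusted p = 4.5e-11). GB55212 had 0.759, 1.06 and 1.3 CPM in olea and 3342, 4766 and 4276 CPM in controls (-11.94 ± 0.20 log2 units, adjusted p = 3.6e-10). In both genes the groups lay far apart. A further set of 6 members, GB45797, GB55211, GB55208, GB55206, GB55209 and GB45796, averaged under 1 CPM in olea and 230.4 to 1351 CPM in controls. GB55213 kept a level of its own in olea, with 13.6, 14 and 13.7 CPM there and 729.9, 1160.5 and 977 CPM in controls (-6.12 ± 0.19 log2 units, adjusted p = 3.1e-07). As a share of all counts the family took 0.12% ± 0.001 in olea, 0.115% ± 0.001 in pear and 2.51% ± 0.51 in control libraries (SD, n = 3 each). Members of this family are close copies of each other, so reads may have been split between them in the authors' counting.

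Not every relative fell. GB52810†, with a yellow-f2-like best hit, had 205, 206 and 198 CPM in olea and 168, 144 and 171 CPM in controls, and rose by 0.34 ± 0.06 log2 units (adjusted p = 0.0018). Yellow-fa (GB55214†) had 67.1, 70.3 and 68.4 CPM in olea and 54.3, 48.1 and 56.4 CPM in controls (0.38 ± 0.06, adjusted p = 8.9e-04). For both, the lowest olea library lay above the highest control library. The family's median log2 difference was -0.78, and it moved between -2.97 with a filter of 1 CPM and -0.32 with no filter on low counts, because these change which low members are tested.

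Enzymes that workers add to nectar and jelly were lower too. Of 23 tested honey-making enzymes 11 were lower and 2 higher, with a median log2 difference of -0.34. The higher count was 0 without olea replicate 2 and 1 without olea replicate 3 or control replicate 1. Glucose oxidase, which makes the hydrogen peroxide of honey, was found in 2 gene models. GB44549 had 0.949, 0.531 and 0.63 CPM in olea and 470.0, 801 and 673 CPM in controls (-9.86 ± 0.48, adjusted p = 2.4e-05). GB51446 had 0 counts over the 3 olea libraries and 695 counts over the 3 control libraries, at least 175-fold lower when 3 counts over the group are taken as the floor. An alpha-amylase (GB49854†), which cuts starch, had 0.379, 0.199 and 0.385 CPM in olea and 4.23, 4.91 and 5.67 CPM in controls (-3.93 ± 0.55, adjusted p = 7.9e-04). Every control library lay above every olea library in these 3 genes, which for GB44549 and GB51446 was a condition of the choice. The alpha-glucosidase Hbg2 (GB54549†) was low in both groups, at 0.683, 0.365 and 0.21 CPM in olea and 1.29, 1.61 and 1.35 CPM in controls, with a log2 difference of -1.77 ± 0.37 (adjusted p = 0.0039). Of the glucose dehydrogenases, flavin enzymes of the same superfamily, GB43005 had 246, 259 and 246 CPM in olea and 486, 623 and 568 CPM in controls (-1.16 ± 0.07, adjusted p = 7.9e-07). Its neighbours in the list, GB44548† and GB43006†, had log2 differences of -1.20 ± 0.10 and -1.46 ± 0.17.

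Other genes that were near 0 in olea have varied roles. Esterase A2 model GB43571 had 0.114, 0.265 and 0.21 CPM in olea and 16.1, 19.8 and 19.4 CPM in controls (-6.50 ± 0.74, adjusted p = 7.9e-04), while the abundant model of that name, GB43572†, averaged 162 CPM in olea and 187 CPM in controls and did not pass (adjusted p = 0.18; 0.012 without control replicate 1). Venom acid phosphatase Acph-1 (GB41326), a venom allergen, had 0.19, 0.265 and 0.245 CPM in olea and 21, 30.8 and 26.1 CPM in controls (-6.77 ± 0.21, adjusted p = 1.4e-09). GB50115, which carries a trypsin inhibitor-like domain, had 3.04, 2.55 and 3.05 CPM in olea and 57.5, 31.8 and 71.7 CPM in controls (-4.22 ± 0.31, adjusted p = 4.0e-05). No overlap of groups was a condition for the largest differences, these 3 genes among them. In all 3 the olea libraries sat together at the foot of the range. A gene with a chitin-binding Peritrophin-A domain (GB53978) and a chitinase-3-like gene (GB42434) had mean levels of 0.229 and 0.638 CPM in olea and 5.33 and 5.21 CPM in controls. A synaptic vesicle glycoprotein 2C model (GB49708), of a transporter-like vesicle protein family, had 1.63, 1.72 and 1.44 CPM in olea and 7.6, 11 and 12 CPM in controls (-2.67 ± 0.20, adjusted p = 2.8e-06). A more abundant model of that name, GB41126†, did not pass (0.10 ± 0.08, adjusted p = 0.38).

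**Figure D2:**
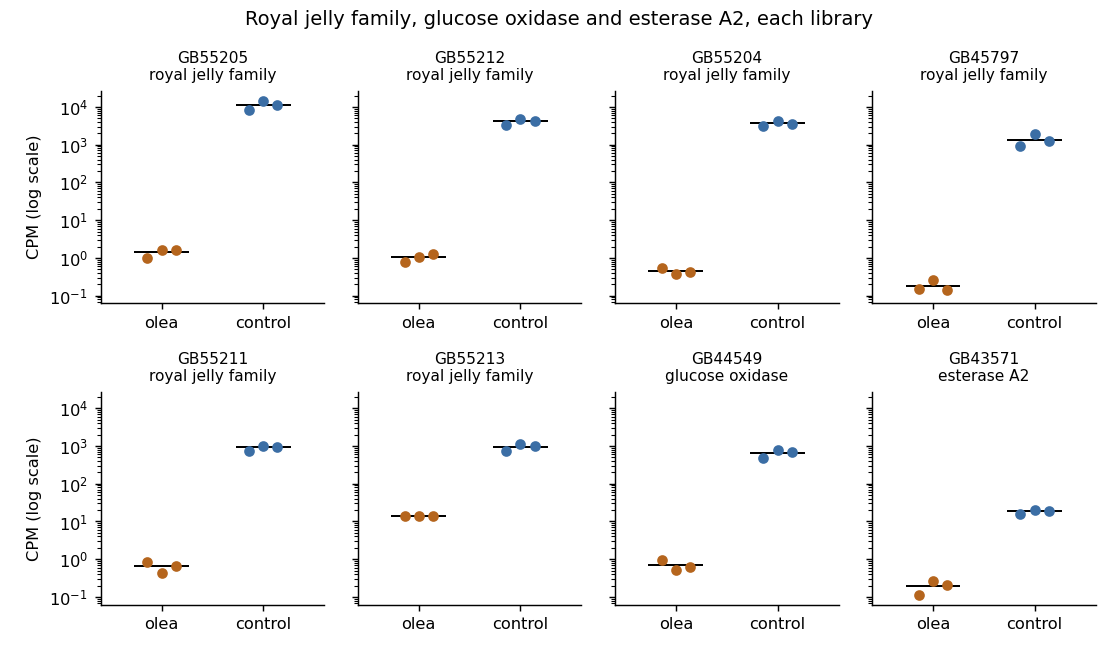
Levels (CPM, log axis) of 8 genes among the largest falls, with 1 point per library, olea left and control right in each panel. In every panel the 3 olea points lie below the 3 control points, which was a condition of the choice. GB55205 lies at 1.02 to 1.65 CPM in olea and 8335 to 14641 CPM in controls.

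Genes of protein folding in the endoplasmic reticulum, where secreted proteins are made, were lower in olea. Of 52 tested members 31 were lower and 0 higher (2 higher without control replicate 2), against a background of 13.5% lower, and the median log2 difference was -0.23. Heat shock cognate 3 (GB49117), the BiP-type chaperone of the reticulum, had 741, 758 and 742 CPM in olea and 1464, 1664 and 1628 CPM in controls (-1.09 ± 0.05, adjusted p = 5.6e-08). Endoplasmin (GB41867†), the Hsp90 of the reticulum, had 395, 401 and 397 CPM in olea and 792, 730.3 and 840.3 CPM in controls (-0.99 ± 0.05, adjusted p = 1.8e-07). Calreticulin (GB40461†), a calcium-binding lectin chaperone, had 558, 551 and 568 CPM in olea and 920.5, 851 and 958 CPM in controls (-0.70 ± 0.05, adjusted p = 1.1e-06). For each of these chaperones the lowest control library was above the highest olea library by more than the whole spread within either group. The oxidase Ero1 (GB55544†), which drives disulfide formation, fell by 0.89 log2 units, protein disulfide-isomerase (GB47336†) by 0.64, its A6 homolog (GB54601†) by 0.94 and the stress-induced factor MANF (GB48552†) by 0.94. A subunit of the Sec61 channel (GB53703†), through which new chains enter, averaged 90.4 CPM in olea and 142 CPM in controls (-0.65 ± 0.06). Members of the list summed to 0.745% ± 0.006 of counts in olea and 1.02% ± 0.02 in controls (SD, n = 3 each). The hypopharyngeal gland markers given above moved with these genes, and their part in the fall was not tested.

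Chaperones outside the reticulum were lower as well: 15 of 22 tested members fell and 0 rose, with a median log2 difference of -0.51. Cytosolic Hsp90 (GB40976†), which holds kinases and hormone receptors, had 2314, 2395 and 2366 CPM in olea and 4233, 3565 and 4484 CPM in controls (-0.80 ± 0.07, adjusted p = 1.0e-05). Lethal(2)essential for life (GB45913†), a small heat shock protein, had 114, 106 and 109.6 CPM in olea and 209, 340.1 and 244 CPM in controls (-1.27 ± 0.15, adjusted p = 5.8e-04). Its controls were the more scattered group, and still did not reach down to olea. Heat shock protein 83 (GB45495), mitochondrial Hsp60A (GB54372†) and an Hsp70Ab-like gene (GB50609†) were lower by 0.70, 0.68 and 0.82 log2 units. Hsc70-4 (GB40866), the constitutive Hsp70 and one of the 10 most abundant transcripts of the olea libraries, had 12005, 9508 and 8872 CPM in olea and 13852, 14636 and 15652 CPM in controls (-0.54 ± 0.10, adjusted p = 0.0019). A minor model of the same name (GB50108†) did not pass (0.09 ± 0.05, adjusted p = 0.2). Of 39 aminoacyl-tRNA synthetases, the enzymes that load tRNAs, 11 were lower and 0 higher, with the lower count at 7 without olea replicate 1 and 5 without olea replicate 3. Serine-tRNA ligase (GB45738) fell by 0.47 log2 units, and the phenylalanine-tRNA ligase alpha subunit (GB51400†) by 0.37.

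**Figure D3:**
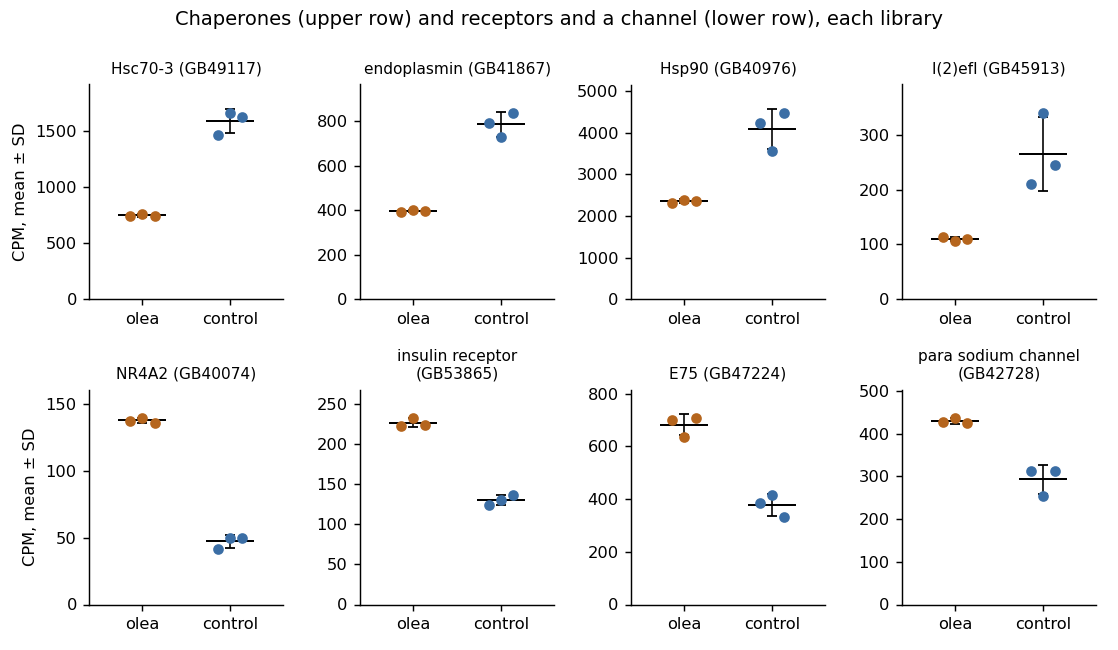
Levels (CPM) of 4 chaperones in the upper row and of 4 receptor, hormone and channel genes in the lower row, with 1 point per library and the mean ± SD (n = 3), olea left and control right. Every chaperone panel has its olea points below its control points, and every lower panel has them above. For NR4A2 (GB40074) a lack of overlap was a condition of the choice.

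The largest rises were smaller than the largest falls. A calmodulin-like gene (GB43063†), of the calcium sensor family, had 103 counts over the olea libraries and 0 over the control libraries, at least 45.4-fold higher with the floor of 3 counts over the group. A gene with an apolipoprotein A1/A4/E domain (GB41418) had 10.4, 8.79 and 12 CPM in olea and 2.43, 4.1 and 2.97 CPM in controls (1.71 ± 0.17, adjusted p = 2.8e-05). A leucine-rich repeat gene (GB50423) had 53.7, 55.2 and 52.5 CPM in olea and 16.5, 18.7 and 19.1 CPM in controls (1.57 ± 0.07, adjusted p = 2.1e-08). In each of these genes the olea libraries stood above all control libraries. For GB41418 and GB50423 this was a condition of the choice, and GB43063 was picked after its values were seen.

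The activity-regulated list holds genes that neurons switch on after firing, and CREB-related genes. Of its 9 tested gene models 6 rose and 0 fell (1 fell without control replicate 1). The orphan nuclear receptor NR4A2 (GB40074) had 137, 139.5 and 136 CPM in olea and 41.4, 50.0 and 49.8 CPM in controls (1.55 ± 0.07, adjusted p = 4.6e-08). HR38 (GB49295), of the same receptor class and known in bees as a marker of recent neural activity and foraging, had 24, 23.7 and 22.2 CPM in olea and 9.18, 6.88 and 8.34 CPM in controls (1.52 ± 0.10, adjusted p = 1.2e-06). The olea libraries stood close to each other in both genes, at more than 2-fold the highest control library. The Jun-type factor AP-1 (GB53318) had 36.1, 35 and 34 CPM in olea and 21, 21.3 and 22.8 CPM in controls (0.69 ± 0.07). Its Fos-type partner kayak was read as 3 gene models: GB42049 rose by 0.48 ± 0.06 and GB42048 by 0.78 ± 0.13, and GB42046 did not pass (0.06 ± 0.13, adjusted p = 0.77). CREB-regulated transcription coactivator 1 was read as a pair: GB55428 had 311, 304 and 299 CPM in olea and 173, 224 and 209 CPM in controls (0.59 ± 0.08). The other model, GB55429, had 51, 45.1 and 46.7 CPM in olea and 45.4, 64.5 and 53.9 CPM in controls and did not pass (-0.20 ± 0.11, adjusted p = 0.19; -0.32 and 0.019 without control replicate 1). The members that rose were thus not every model of each gene. Early growth response protein 1 (GB42180), a first-wave factor, did not pass at a log2 difference of 0.66 ± 0.24 (adjusted p = 0.062) and lay at 2.45 CPM or below in every library.

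Receptors and factors of ecdysone, juvenile hormone and insulin signalling were also higher, 12 of 20 tested with 0 lower and a median log2 difference of 0.29. The insulin receptor (GB53865), which reads the nutritional state, had 223, 233 and 224 CPM in olea and 124, 130.1 and 136 CPM in controls (0.80 ± 0.05, adjusted p = 3.5e-07). Every olea library was above every control library, and the spread within each group was small beside the gap. A second receptor, InR-2 (GB55425†), had 30.5, 31.1 and 29.9 CPM in olea and 23, 25.1 and 22.4 CPM in controls (0.38 ± 0.07, adjusted p = 0.0019), and an insulin-like peptide receptor (GB53353†) and the receptor substrate (GB49911†) rose by 0.72 ± 0.13 and 0.26 ± 0.06. On the ecdysone side, the ecdysone receptor (GB48059†) had 236, 227 and 232 CPM in olea and 157, 161 and 151 CPM in controls (0.57 ± 0.05, adjusted p = 1.1e-05). Its partner ultraspiracle (GB42692†) rose less, by 0.31 ± 0.06 log2 units. E75 (GB47224†), a heme-binding receptor that ecdysone induces in flies, had 700.2, 635 and 708 CPM in olea and 385, 414 and 331 CPM in controls (0.86 ± 0.08, adjusted p = 2.2e-05), and the related 78C (GB41516†) differed by 0.69 ± 0.09. In all of these genes the olea libraries were above the control libraries with no overlap. Of 18 tested genes with the haemolymph juvenile hormone binding domain, carriers of that hormone among them, 3 were higher and 6 lower, with 5 higher without control replicate 2.

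Ion channels, which set how sensory cells fire, were higher in 30 of 77 tested members and lower in 2, against a background of 14.4% higher and 13.5% lower; the median log2 difference was 0.21. The lower count was 1 without olea replicate 1 or 3, control replicate 2 or pear replicate 1 or 2, the pear libraries entering through the shared estimate of spread. A TRPV-type channel (GB44065), of the class used in flies for hearing and touch, had 38.9, 38.8 and 44.3 CPM in olea and 12.2, 16.3 and 15.2 CPM in controls (1.48 ± 0.10, adjusted p = 1.1e-06). The voltage-gated sodium channel paralytic (GB42728†), which carries the action potential, had 427, 437 and 425 CPM in olea and 312, 255 and 313 CPM in controls (0.55 ± 0.07, adjusted p = 1.4e-04). The calcium channel cacophony (GB51897†), which triggers transmitter release, had 41.4, 41.1 and 37.9 CPM in olea and 26.1, 20.2 and 24.7 CPM in controls (0.76 ± 0.10, adjusted p = 1.8e-04). Each of the 3 had its olea libraries above all of its control libraries, which for GB44065 was a condition of the choice. The control libraries were the more scattered for paralytic and cacophony. Voltage-gated potassium channels, which end the action potential, rose too, GB42249† by 0.41 ± 0.04, GB45293† by 0.42 ± 0.06 and GB40789† by 0.90 ± 0.12. The pacemaker channel activated by hyperpolarization (GB47876†) rose by 0.35 ± 0.07.

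Biogenic amine genes were higher in 9 of 30 tested (30%) and lower in 4 (13.3%), with a median log2 difference of 0.25. Over all tested genes 14.4% were higher and 13.5% lower, so the lower share was near the background. The higher count was 5 without olea replicate 2, and the lower count was 2 without any 1 olea library. The tyramine receptor TyrR (GB47385†) had 53.9, 53.3 and 49.7 CPM in olea and 33.5, 26.9 and 36.8 CPM in controls (0.69 ± 0.09, adjusted p = 2.6e-04). Octopamine receptor beta-2R (GB49696†), which answers the arousal amine of insects, had 95.9, 91.8 and 96.1 CPM in olea and 74.6, 69.5 and 72.6 CPM in controls (0.39 ± 0.05, adjusted p = 1.1e-04). The dopamine transporter Dat (GB40947†) differed by 0.42 ± 0.08. In the other direction, dopamine N-acetyltransferase (GB51044), which removes amines, had 230.3, 232 and 226 CPM in olea and 265, 298 and 275 CPM in controls (-0.28 ± 0.05, adjusted p = 0.0012). Of 76 neuronal and synaptic genes 22 were higher and 5 lower; the higher count was 13, 12 and 11 without olea replicates 1, 2 and 3, and the lower count was 2 without olea replicate 3. Among them an ELAV-like protein 3 model (GB42233†), an RNA-binding protein of neurons, rose by 0.58 ± 0.07, while the abundant model of that name (GB53719†) averaged 367 CPM in olea and 364 CPM in controls and did not pass (adjusted p = 0.9). The neuronal markers given above were higher in 2 of 4, and their part in these counts was not tested. An NMDA-type glutamate receptor subunit (GB48097†) rose by 0.57 ± 0.09. Of 23 neuropeptide genes and receptors 2 were higher and 3 lower; leaving out 1 olea library left 1 higher (replicate 1 or 3) and 1 lower (replicate 1 or 2). The CCHamide-2 receptor, which answers a gut and brain peptide in flies, had a rise of 1.61 ± 0.25 in the model GB40053, at 0.931 CPM in olea and 0.302 CPM in controls. Its main model, GB40054, averaged 135 CPM in olea and 125 CPM in controls and did not pass (adjusted p = 0.18). The adipokinetic hormone receptor (GB53230†), which releases stored fuel, was lower by 0.79 log2 units.

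Odorant receptors, the ligand-binding partners of odorant receptor 2, were higher in 20 of 143 tested members and lower in 4, so their share of higher members was near the background of 14.4%. The higher count was 13 without olea replicate 2 and 11 without olea replicate 3; the lower count was 2 without either of them and 8 without control replicate 2. Odorant receptor 2 itself rose by 0.35 ± 0.06 log2 units (adjusted p = 0.001). GB45080† and GB48703†, which carry the receptor domain, rose by 0.65 ± 0.12 and 0.36 ± 0.07, and GB41599†, with odorant receptor 13a as best hit, was lower by 1.18 at a mean of 0.942 CPM in olea and 2.14 CPM in controls. Ionotropic receptor 25a (GB47387), the co-receptor of the other olfactory receptor class, went the other way: it had 30.9, 32.4 and 29.9 CPM in olea and 36.1, 40.4 and 38.5 CPM in controls (-0.30 ± 0.07, adjusted p = 0.0049), and the other 3 ionotropic receptors tested did not pass. Among 12 gustatory receptor genes 0 were higher and 1 lower. That gene, gustatory receptor 10 (GB44013), had 0 counts over the olea libraries and 88 over the control libraries, at least 22.2-fold lower. The sugar receptor of the 43a type (GB40382) had 49.4, 43.6 and 40.5 CPM in olea and 39.7, 38.4 and 42.4 CPM in controls, and did not pass (adjusted p = 0.19).

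Odorant binding proteins, which carry odours to the receptors, were higher in 6 of 18 tested and lower in 2. GB46229 had 156, 144 and 156 CPM in olea and 78.3, 50.2 and 75.2 CPM in controls (1.17 ± 0.15, adjusted p = 5.4e-04). GB53372† had 1699, 1663 and 1643 CPM in olea and 1010.4, 1069 and 1173 CPM in controls (0.62 ± 0.05, adjusted p = 7.8e-06). GB46226, a lower member, had 91.2, 86.9 and 92.4 CPM in olea and 140.3, 149.9 and 144 CPM in controls (-0.68 ± 0.05, adjusted p = 4.0e-06). The groups did not overlap in any of the 3 genes, which for GB46229 was a condition of the choice. The most abundant member, GB55593, had 23745, 24336 and 24354 CPM in olea and 19536, 23809.9 and 22304 CPM in controls and did not pass (adjusted p = 0.11); without control replicate 2 its adjusted p was 0.0071. Carboxylesterase FE4 (GB55921), a still more abundant transcript of a class that includes odour-degrading enzymes, had 30457, 30956 and 30295 CPM in olea and 27318, 30206 and 29885 CPM in controls and did not pass either (adjusted p = 0.31).

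Detoxification genes moved in both directions. Of 41 tested cytochrome P450 genes, oxidases of hormones and plant compounds, 7 (17.1%) were higher and 11 (26.8%) lower. Over all tested genes 14.4% were higher and 13.5% lower, so the higher share was near the background. The higher count was 4 without olea replicate 2 or 3. A P450 6a14-type gene (GB51383) had 11.2, 12 and 11.2 CPM in olea and 5.2, 3.64 and 4.12 CPM in controls (1.41 ± 0.14, adjusted p = 2.9e-05), and another of that best hit (GB49878†) had 34.7, 37.9 and 34 CPM in olea and 53, 68.2 and 61.4 CPM in controls (-0.77 ± 0.09, adjusted p = 5.9e-05). Cyp4g11 (GB51356†), of the family that makes cuticular hydrocarbons, had 70.4, 74.9 and 72.5 CPM in olea and 94.1, 117 and 111 CPM in controls (-0.56 ± 0.07, adjusted p = 1.7e-04). Genes with the same best hit thus differed in sign, each with no overlap of the groups. For GB51383 that was a condition of the choice. The most abundant member, CYP6AQ1 (GB52023), had 16084, 16824 and 15783 CPM in olea and 14849.9, 17465 and 16290.5 CPM in controls and did not pass (adjusted p = 0.98). A UDP-glucuronosyltransferase 2B15-type gene (GB54460), which tags compounds for export, fell by 1.24 log2 units. Of 33 immune genes 10 were higher and 6 lower. An apidaecin gene (GB47546), an antibacterial peptide of bees, had 13.9, 14.4 and 16.2 CPM in olea and 2.96, 5.64 and 3.5 CPM in controls (1.87 ± 0.20, adjusted p = 6.4e-05). Defensin-1 (GB41428), the antibacterial peptide also found in royal jelly, had 55.6, 49.6 and 47.2 CPM in olea and 107, 149 and 132 CPM in controls (-1.35 ± 0.11, adjusted p = 7.9e-06). The peptides moved in opposite directions, and in both the groups stood apart, which for GB47546 was a condition of the choice. Protein toll-like (GB48396†), a receptor of the Toll pathway, rose by 0.59 ± 0.06. Of the models of its transcription factor dorsal, the main one (GB44032) averaged 437 CPM in olea and 424 CPM in controls and did not pass (adjusted p = 0.44), and GB44031† rose by 0.44 ± 0.05. A glucan-binding recognition protein (GB42981†) rose by 0.90 ± 0.10, and phenoloxidase 2 (GB44996†), a melanin enzyme, fell by 0.96.

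Sugar and fat metabolism held differences in both directions. Of 31 genes of glycolysis and trehalose use 8 were higher and 4 lower, with 2 lower without olea replicate 3. Hexokinase-1 (GB49562†), the entry step of glycolysis, had 504, 508 and 509.5 CPM in olea and 361, 351 and 382 CPM in controls (0.48 ± 0.04, adjusted p = 1.1e-05). Trehalase, which splits the blood sugar of insects, was read as 3 gene models that rose by 0.52 ± 0.05 (GB43576†), 0.45 ± 0.05 (GB55489†) and 0.49 ± 0.06 (GB43575†). The trehalose transporter Tret1 has several models, of which GB55302 had 539, 543 and 523 CPM in olea and 369.8, 356 and 376 CPM in controls (0.54 ± 0.04, adjusted p = 2.6e-06). This model and the trehalases had every olea library above every control library. The most abundant Tret1 model, GB41602, averaged 824 CPM in olea and 738 CPM in controls (0.16 ± 0.04, adjusted p = 0.016), a call lost without olea replicate 1 or 2 (adjusted p of 0.056 and 0.072). The main fructose-bisphosphate aldolase (GB40735) averaged 1731 CPM in olea and 1739.9 CPM in controls and did not pass (adjusted p = 0.93). A minor aldolase (GB40734) had 4.36, 4.28 and 4.38 CPM in olea and 15.8, 21.3 and 16.3 CPM in controls (-2.03 ± 0.14, adjusted p = 1.3e-06), and glycogen phosphorylase (GB42835†), which releases stored sugar, fell by 0.40. Sugar and amino acid transporters were higher in 19 and lower in 9 of 65. Outside that list, a solute carrier of the organic anion family (GB55881) had 105, 100.1 and 98 CPM in olea and 42.7, 31.7 and 43.4 CPM in controls (1.37 ± 0.10, adjusted p = 2.5e-06).

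Of 37 fatty acid genes 8 were higher and 4 lower, with 7 lower without control replicate 2. Elongases, which lengthen the chains of waxes and pheromones, moved both ways: GB54400 had 129, 121 and 127 CPM in olea and 62, 47.1 and 66 CPM in controls (1.11 ± 0.10, adjusted p = 1.7e-05). GB54404 had 8.92, 8.39 and 7.81 CPM in olea and 31.3, 32.7 and 36.1 CPM in controls (-1.99 ± 0.09, adjusted p = 4.2e-08). Another elongase (GB54401†) rose by 0.81 ± 0.04, fatty acid synthase (GB53412†) by 0.53 ± 0.08 and acetyl-CoA carboxylase (GB49336†) by 0.51 ± 0.08. Of 19 storage and lipid carrier proteins 6 were lower and 2 higher, with 0, 1 and 1 higher without olea replicates 1, 2 and 3. Apolipophorin-III (GB55452†), a lipid carrier of the blood, had 16.1, 14.9 and 14.6 CPM in olea and 27.6, 31.7 and 34.7 CPM in controls (-1.04 ± 0.10, adjusted p = 1.3e-05). A gene with the lipoprotein amino-terminal region of vitellogenins (GB49544) had 13.5, 13.3 and 12.1 CPM in olea and 43.7, 70.4 and 56.5 CPM in controls (-2.13 ± 0.15, adjusted p = 2.4e-06). The most abundant gene with that region (GB52467) averaged 2084 CPM in olea and 2056 CPM in controls and did not pass (adjusted p = 0.8). The lysosomal protease cathepsin B (GB44146) had 461, 486 and 459.7 CPM in olea and 171, 202 and 195 CPM in controls (1.31 ± 0.06, adjusted p = 4.5e-08). It was higher in olea, with each olea library at more than 2-fold each control library.

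Clock and foraging genes were few. Of 7 clock genes 2 were higher and 2 lower. Period, the repressor that insect clocks cycle, was read as a pair of gene models: GB52078 had 54.5, 52.7 and 53.2 CPM in olea and 69.6, 86.5 and 72.6 CPM in controls (-0.51 ± 0.07, adjusted p = 3.6e-04), and GB52077 differed by -0.42 ± 0.07. Cryptochrome 2 (GB51095), its partner, had 26.8, 32.2 and 26.9 CPM in olea and 19.1, 20.2 and 18.7 CPM in controls (0.57 ± 0.08, adjusted p = 4.7e-04). Clock, the activator, was read as a pair of models: GB44365 rose by 0.33 ± 0.06, and GB48028, at 67.4 CPM in olea and 71 CPM in controls, did not pass (-0.08 ± 0.06, adjusted p = 0.34). The timeless models GB41003 and GB41002, near 1 to 2 CPM, did not pass either (adjusted p of 0.063 and 0.995; 0.025 for the first without olea replicate 1). The labels give no hour of sampling. Of 6 foraging genes 4 were lower and 0 higher. The cGMP-dependent protein kinase, the product of the foraging gene in flies, had a best hit in 3 lower gene models. GB49908 had 116, 119 and 117 CPM in olea and 151, 183 and 167 CPM in controls (-0.51 ± 0.06, adjusted p = 1.2e-04), and GB49907 and GB49906 differed by -0.63 ± 0.09 and -0.64 ± 0.12. Inositol-3-phosphate synthase (GB51125), a gene of sugar alcohol synthesis, was the other lower one (-0.21 ± 0.04). The metal transporter Malvolio (GB54097), tied to sucrose responsiveness in bees, had 93.3, 95.1 and 95.9 CPM in olea and 90.2, 78.3 and 93.5 CPM in controls and did not pass (adjusted p = 0.2).

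Structural lists were mixed. Cuticle and chitin genes were higher in 7 and lower in 21 of 72, among them an acidic chitinase (GB43579†) that fell by 0.85, while pro-resilin (GB45553†), an elastic cuticle protein, rose by 0.61 ± 0.10. Muscle genes were higher in 3 and lower in 11 of 35, with 5, 7 and 4 lower without olea replicates 1, 2 and 3. One of the muscle-specific protein 20 genes (GB40253), of the calponin type, had 29.5, 27.6 and 29.8 CPM in olea and 10.9, 9.64 and 10.7 CPM in controls (1.48 ± 0.08, adjusted p = 1.4e-07). A troponin C gene (GB45211†), for the calcium sensor of contraction, had 41.4, 43.7 and 43.5 CPM in olea and 60.4, 72.4 and 70.2 CPM in controls (-0.66 ± 0.07, adjusted p = 5.0e-05). These contractile genes moved in opposite directions with no overlap of groups, which for GB40253 was a condition of the choice. The main troponin C gene (GB40619†) averaged 489.6 CPM in olea and 515 CPM in controls and did not pass (adjusted p = 0.58).

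**Figure D4:**
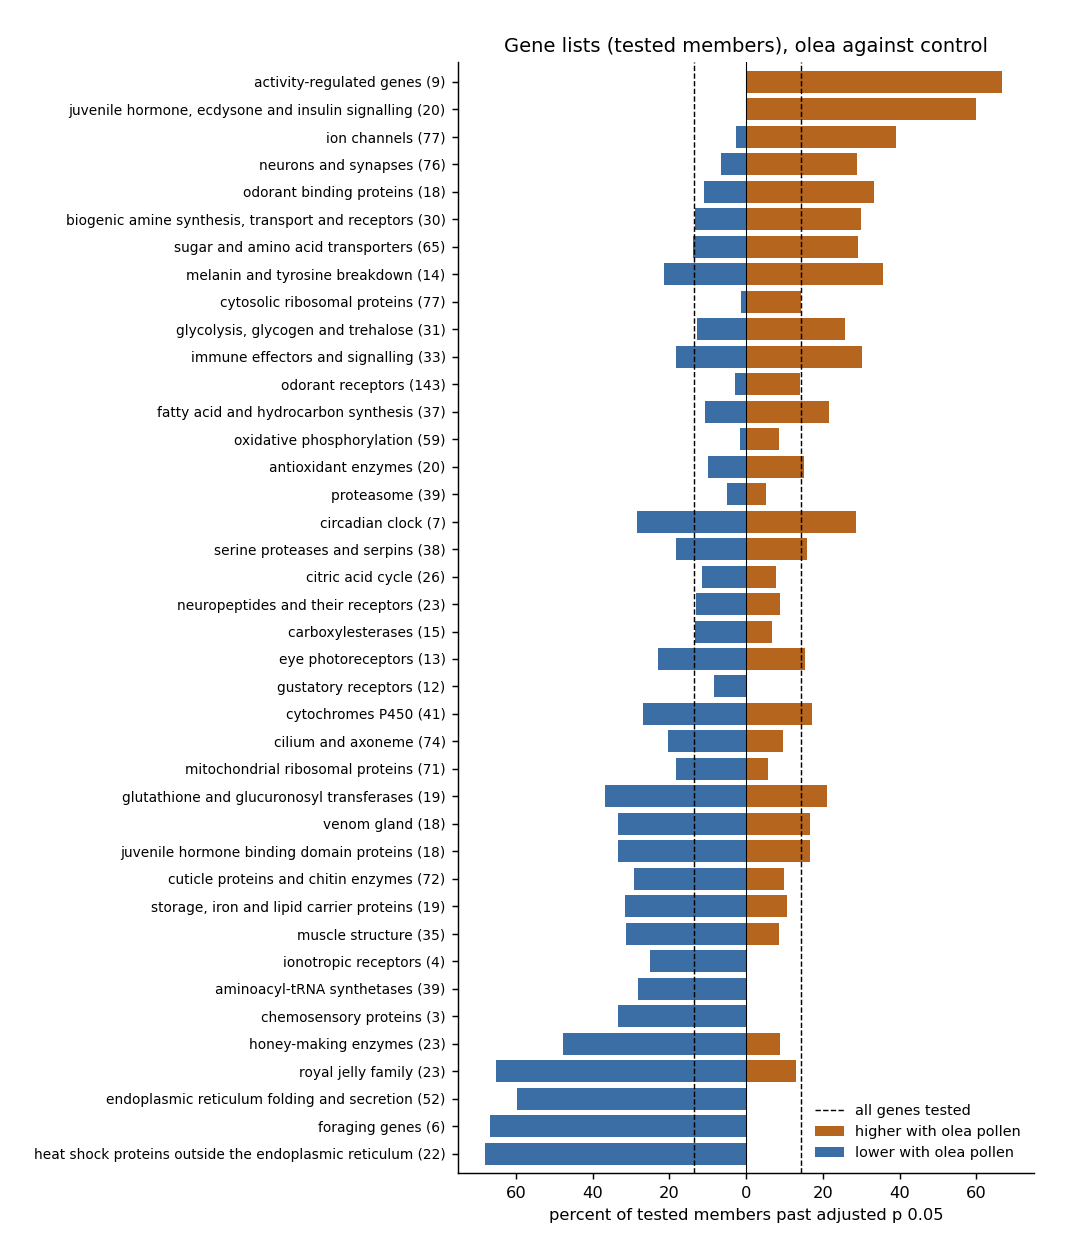
For 40 gene lists, the percentage of tested members called higher (bars to the right) and lower (bars to the left) in olea than in control tentacles; dashed lines mark the 14.4% higher and 13.5% lower of all 12950 tested genes. The longest bars to the left include the heat shock and endoplasmic reticulum lists, and those to the right the activity-regulated and hormone and insulin lists.

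Olea and pear libraries were then set against each other in the same fit, which asks where olive pollen differed from another collected pollen; both pollen groups share the control libraries. Fewer genes passed: 337 of 12950 (2.60%), 247 (1.91%) higher in olea and 90 (0.695%) lower. Without olea replicates 1, 2 and 3 the count was 153, 178 and 162, without pear replicates 1, 2 and 3 it was 167, 143 and 186, and with only the 6 olea and pear libraries in the fit it was 1413. The control libraries, left out of that fit, were the more scattered ones (chi-square per degree of freedom of 13.9 to 45.2 between replicates, against 3.33 to 4.71 in the pollen groups), and the part of this in the counts was not tested. Among the royal jelly family 1 member, yellow-fa, was higher in olea than in pear and 0 were lower, and 0 were called without any 1 olea or pear library. In the endoplasmic reticulum chaperone Hsc70-3 the means were 747 CPM in olea, 650.0 CPM in pear and 1585 CPM in controls, with an adjusted p of 0.064 between olea and pear. NR4A2 averaged 137 CPM in olea, 125 CPM in pear and 47.1 CPM in controls, with an adjusted p of 0.44 between the pollen groups. A p that misses the threshold does not show that the pollen groups were alike.

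Some genes were higher in olea than in both other groups. The P450 6a14-type gene GB51383 had 11.2, 12 and 11.2 CPM in olea, 4.34, 5.7 and 4.69 CPM in pear and 5.2, 3.64 and 4.12 CPM in controls, and its log2 difference from pear was 1.22 ± 0.14 (SE, adjusted p = 8.1e-04). The sodium channel 60E (GB47190†), a relative of paralytic, had 53.8, 53.4 and 51.1 CPM in olea, 35.8, 38 and 37 CPM in pear and 36.8, 34.5 and 39.3 CPM in controls (0.51 ± 0.06 against pear, adjusted p = 0.001). A voltage-gated potassium channel gene (GB51854†) had 100.1, 92.4 and 94.8 CPM in olea, 64.5, 61.2 and 69.2 CPM in pear and 63.6, 56.6 and 58.8 CPM in controls (0.56 ± 0.06 against pear, adjusted p = 5.5e-04). In these genes no pear library reached the lowest olea library. The synaptic vesicular amine transporter (GB42802), a pump that fills vesicles with amines, had 82.9, 82.5 and 83 CPM in olea, 62.1, 63 and 65.5 CPM in pear and 57.2, 54.4 and 58.5 CPM in controls (0.38 ± 0.05 against pear, adjusted p = 0.0013). A dynein heavy chain (GB47452), a motor of microtubule transport, had 256, 271 and 247 CPM in olea, 162, 159 and 159.9 CPM in pear and 141, 123 and 152 CPM in controls (0.69 ± 0.07 against pear, adjusted p = 1.9e-04). The same order, olea above pear, was called in a hemicentin-2-like gene (GB51385, 0.92 ± 0.13) and a BAH domain gene (GB41747, 0.86 ± 0.07). The differences from pear in these 7 genes passed with any 1 olea or pear library left out, as did those of the genes below unless stated.

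**Figure D5:**
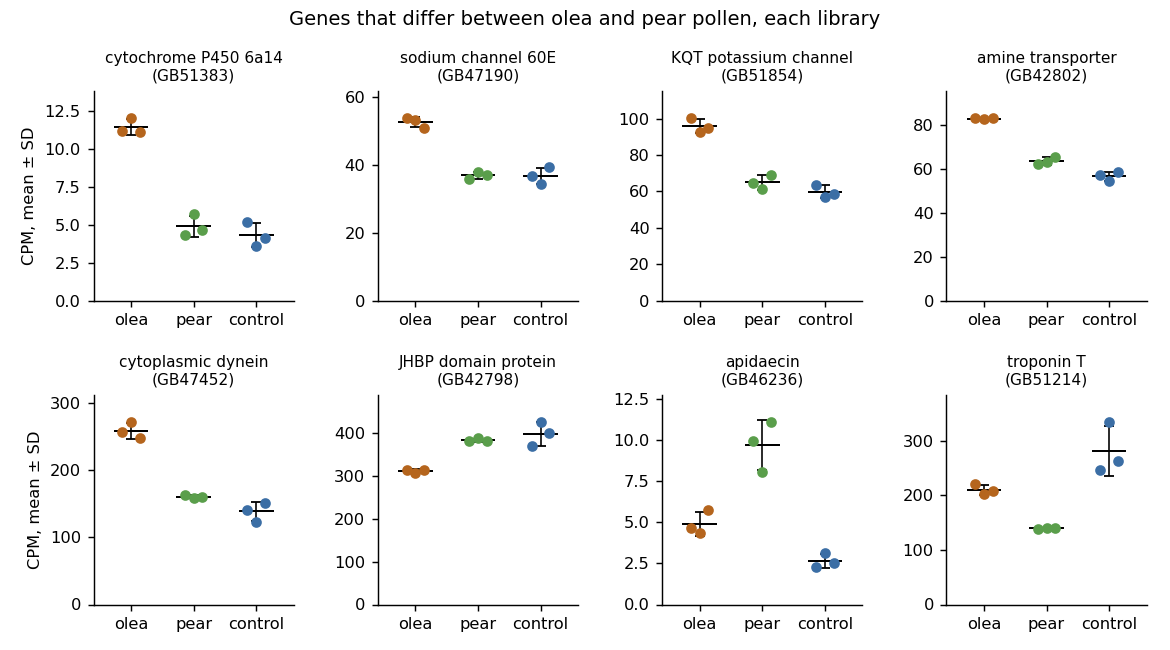
Levels (CPM) of 8 genes that differed between olea and pear, with 1 point per library and the groups in the order olea, pear, control from left to right. The amine transporter GB42802 lies at 82.5 to 83 CPM in olea, and the troponin T gene GB51214 lies between pear below and control above.

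Others were lower in olea than in pear. Apidaecin GB46236† had 4.67, 4.34 and 5.74 CPM in olea, 9.94, 8.1 and 11.1 CPM in pear and 2.26, 3.15 and 2.54 CPM in controls, so olea lay between pear and control (-0.98 ± 0.16 against pear, adjusted p = 0.0061). Apidaecin GB47546 had the same order, with 24.9, 31.1 and 29.2 CPM in pear (-0.94 ± 0.18, adjusted p = 0.018), but the call was lost without any 1 olea library and without pear replicate 2 or 3, at adjusted p between 0.064 and 0.11. A juvenile hormone binding domain gene (GB42798) had 313, 305 and 312 CPM in olea, 380.2, 387 and 379.6 CPM in pear and 368, 424 and 399 CPM in controls, and was called lower in olea than in pear (-0.30 ± 0.05, adjusted p = 0.0074) and than in controls (-0.36 ± 0.05, adjusted p = 3.6e-04). The 2 odorant binding proteins GB46229 and GB46228† were higher in olea than in pear by 0.72 ± 0.14 and 0.59 ± 0.11, with adjusted p of 0.038 and 0.017. Without 1 olea or pear library at a time the adjusted p of the first lay between 0.092 and 0.17. That of the second was 0.085, 0.079, 0.094 and 0.097 without olea replicate 1, olea replicate 3, pear replicate 1 and pear replicate 2, so neither call held.

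Muscle genes had the highest share of members called between the pollen groups among the 40 lists: 22 of 35 were higher in olea than in pear and 1 lower, against a background of 1.91% and 0.695%, with a median log2 difference of 0.52. Troponin T (GB51214†), which anchors the troponin complex on the thin filament, had 221, 204 and 208 CPM in olea, 138, 140.4 and 140.0 CPM in pear and 246, 334 and 264 CPM in controls (0.60 ± 0.09 against pear, adjusted p = 0.0057). A titin-like gene (GB55483†), the spring of the sarcomere, had 828, 860.4 and 819 CPM in olea, 524, 553 and 581 CPM in pear and 672, 678 and 744 CPM in controls (0.60 ± 0.05 against pear, adjusted p = 1.3e-04). The pear libraries were the lowest group in both genes, while olea lay below the controls in the first and above them in the second. The 8 muscle markers summed to 4423 to 4440 CPM in olea, 3120 to 3186 CPM in pear and 4504 to 5193 CPM in controls, and whether the amount of muscle in the samples bears on this was not tested.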

How the data were processed

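RNA was sequenced from 18 libraries, and the 9 tentacles libraries were used here. The authors deposited 1 table with read counts and FPKM per gene and library. Reads were aligned with HISAT2, per the submitters' processing notes, whose version, like the counting tool and the genome build, is not given in the sources used here. Deposited counts were tested as they stand, and the authors' FPKM values entered only as an alternative, as log2(FPKM + 1) in limma 3.58.1. In all, 70 lines broken inside an annotation were rejoined. Each of 10494 of the 17545 genes was named by its best KEGG hit in the authors' table (e-value of 1e-10 or less) or else its Pfam domain; a further gene had the same honey bee hit in 1522 cases, and such gene models were reported by their IDs.

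The 9 libraries were fitted together with edgeR 4.0.16 in R 4.3.3 (filterByExpr by group, TMM scaling, robust quasi-likelihood F test), which leaves 6 residual degrees of freedom. Contrasts were olea minus control and olea minus pear, p-values were adjusted by Benjamini-Hochberg over 12950 genes, and SE is the log2 difference divided by the square root of F. Depth was 26351165 to 30220262 counts in olea, 29205966 to 31136992 in pear and 30543821 to 41357453 in controls, which limits genes of a few CPM. A group with 0 counts was given a floor of 3 counts over the group. The procedure was tested on simulated data.

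The members and lists were chosen with earlier results of these data known. A rule gave the genes that could be named. It took the 20 largest called differences each way with a mean of at least 5 CPM. Those were taken only where the olea and control libraries did not overlap. The rule also took the member of smallest p and the most abundant member of each of 40 lists. All members of lists of at most 12 were added. So were the 10 most abundant genes, the 8 largest differences each way shared with the pear contrast, and markers. The text names some of the genes given by the rule, and genes outside it carry †. Alternatives were other scalings, filters and tools (DESeq2 1.42.0), thinned counts, a replicate block, fewer libraries, and each olea or control library left out; leaving out pear libraries was added after seeing the data. Replicate numbers came from the labels' codes, with no statement that they mark a shared day or colony.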

Additional observations from a re-analysis of the deposited data

How the results depend on the processing

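For olea against control, the count of 3617 called genes lay between 2422 and 3910 when 1 library was left out (2422 to 2597 without an olea library, 3592 to 3910 without a control library), and the lower count of 1753 between 1097 and 2017. Other settings gave 3612 (DESeq2 size factors), 3631 (upper quartile), 3466 (no filter), 3619 (CPM of at least 1), 3700 (DESeq2), 2715 (6 libraries only), 3369 (limma on FPKM) and 3549 (thinned to the smallest library). In these data the scalings moved the median of all genes by under 0.01. With the replicate number as a block 3371 genes were called. The deviations of olea and control libraries with the same number correlated at 0.01, -0.05 and -0.04. Those with different numbers lay between -0.06 and 0.09. With 3 libraries per group these values cannot settle whether the numbers pair the samples. Of the 170 genes examined singly against control, those called kept their direction in each alternative in which they were tested, and 2 lost the call in some: GB41602 and GB43247, also with only the 6 libraries (adjusted p of 0.061 and 0.060). Without 1 library, 4 uncalled genes passed: GB41003, GB43572, GB55429 and GB55593. Uncalled genes near a log2 difference of 0 changed sign: GB52023 was -0.0042 without the royal jelly family, -0.0053 with no filter and -0.0098 with limma, GB41002 was 0.0036 with upper quartile scaling, and GB53719 was -0.00066 with limma. Leaving out 1 library gave -0.058 to 0.052 for GB52023, -0.19 to 0.18 for GB41002, -0.044 to 0.073 for GB53719, -0.010 to 0.17 for GB42046, -0.048 to 0.030 for GB40735, -0.039 to 0.044 for GB52467, -0.17 to 0.056 for GB40619 and -0.0071 to 0.17 for GB41126.

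For olea against pear, 337 genes (247 higher and 90 lower in olea) became 519 with DESeq2 (181 lower), 1413 with only the 6 libraries (767 higher and 646 lower) and 247 with the replicate block (185 higher and 62 lower). The 6 libraries gave 54.3% of calls higher in olea, against 73.3% in the fit of 9; the cause was not tested. Leaving out 1 olea or pear library gave 143 to 186 called genes, 113 to 138 higher and 30 to 48 lower. Over the lists, 138 counts of called members moved by over 1.5 times and 1380 did not, and 23 medians moved by more than 0.1 and 736 did not. Genes of a few CPM rest on few reads, and calls among them are limited by depth.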
